A study of Mus musculus with 24 samples.

Results

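The expression of 8 genes was examined in mouse neuroblastomas and adrenal glands. 3 of them encode the enzymes that build the ganglioside GD2 (St3gal5, St8sia1 and B4galnt1), and 5 encode surface proteins pursued as targets of antibodies or engineered T cells in neuroblastoma (Gpc2, Cd276, Dll3, L1cam and Ncam1). They were picked by gene symbol for these roles and not by a cutoff on measured values, though with earlier results of these data known, and all 8 were among the 21833 protein-coding genes of the deposited table. In short, St8sia1, Gpc2, Cd276, L1cam and Ncam1 were higher in each of the 16 tumors than in each of the 8 glands, St3gal5 was lower in each tumor, B4galnt1 was higher in both kinds of tumor with some overlap, and Dll3 was barely detected anywhere. Of all genes with a value above 0, 5.72% were higher in all tumors in this way, and 14.7% did not overlap in either direction.

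Gangliosides are sialic acid-bearing glycolipids of the outer cell membrane. ST3GAL5 adds the first sialic acid to lactosylceramide and makes GM3, ST8SIA1 adds the next and makes GD3, and B4GALNT1 adds N-acetylgalactosamine to GD3 and makes GD2, the antigen of the antibodies used against neuroblastoma. GM3 is also a substrate of B4GALNT1, which turns it into GM2, so St8sia1 and B4galnt1 stand at a branch. Among the surface proteins, glypican 2 is a heparan sulfate proteoglycan of developing neurons, CD276 (B7-H3) is an immune checkpoint molecule of the B7 family, DLL3 is a Notch ligand that inhibits Notch signalling within the cell, and L1CAM and NCAM1 (CD56) are adhesion molecules of neurons with immunoglobulin domains.

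Poly(A)-enriched, strand-specific RNA-seq of 24 samples fell into 4 groups. AG (n = 3) were adrenal glands labelled CRE -. AGM (n = 5) were adrenal glands labelled MYCN +/-, CRE +, from mice that had stayed free of tumors and were culled after 1 year. TI (n = 8) were neuroblastomas labelled CRE + with the IGF2BP1 transgene, 1 of them +/- and 7 +/+. TIM (n = 8) were neuroblastomas labelled IMP1/MYCN, CRE +, where IMP1 is another name of IGF2BP1. The transgenes lay in the Rosa26 locus behind a stop cassette that Cre removes, and Cre was driven by the promoter of Dbh, the gene of dopamine beta-hydroxylase, so that they are switched on in sympatho-adrenal cells. AGM, TI and TIM thus carried Cre and AG did not. TI included 1 tumor labelled as lying in the adrenal gland and TIM included 2, with 1 more at the spine, and the other tumors had no site in their labels. The ages of the AG mice were not given in the sources used here. The study's median survival was below 1 year for mice homozygous for IGF2BP1, and shorter still for mice with both transgenes. Age was thus not matched between AGM, TI and TIM.

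All AG libraries came from sequencing run 1 and all AGM libraries from run 2, so that run and genotype cannot be told apart between them. TI came mainly from run 1 (6 of 8) and TIM from runs 2 and 3, and the columns of tumors could not be tied to a run, so that no value within a run can be given. The reads given here were recovered from the FPKM, and may be counts after the authors' batch correction and not reads as sequenced. Outside 126 genes above 1000 FPKM, they ranged from 12334076 to 23683176 per library. Over all genes they came to 12468968 to 21353172 in the AG and TI libraries but to 58530450 to 1170004708 in the AGM and TIM libraries, and none of the 8 genes was among those 126. The cause of these totals was not tested, nor was the part of the authors' batch correction in the values of AGM and TIM. The summed FPKM of 8 markers of the adrenal cortex ranged from 645 to 667 among the AG libraries, from 4290 to 5370 in AGM, from 0.0173 to 10.1 for TI and from 0.281 to 9.28 for TIM, and no marker was at 0 in every library of a group. Of these 8 markers, 7 were lower in TI and in TIM than in AG and 8 were higher in AGM. The sum of 9 markers of chromaffin cells and sympathoblasts ranged from 91.1 to 132 among the AG libraries, from 1090 to 2090 in AGM, from 196 to 1630 for TI and from 199 to 3940 for TIM, with 5 of the 9 higher in each of AGM, TI and TIM than in AG. Markers of adipocytes summed to 50.8 to 316 FPKM in glands and at most 36.1 in tumors, and those of endothelium to 10.9 to 16.5 in glands and 1.15 to 19.8 in tumors. Schwann cell markers reached 45.5 FPKM in TIM and at most 5.39 elsewhere, fibroblast markers reached 84.4 in TI and at most 39.3 elsewhere, and macrophage (3.4 to 11.5) and T cell markers (0.0793 to 0.692) overlapped between all groups. Both tumor groups thus carried the markers of their lineage and almost none of the cortex, and AGM carried more of both than AG. The part of these cell types in the differences below was not tested. In such bulk tissue, fewer cells of a type and less RNA per cell cannot be told apart.

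The first step of the pathway was the one that was lower in tumors. St3gal5 (chromosome 6, 72074329 to 72131556, plus strand, GRCm39) was at 14.3, 14.7 and 16.4 FPKM in AG, and at 10.4, 11.1, 12.7, 13.2 and 13.6 FPKM in AGM. In TI it ranged from 1.66 to 4.23 FPKM with a median of 3.16, and in TIM from 1.7 to 5.74 FPKM with a median of 4.51. No tumor reached the lowest gland. The mean FPKM was 4.77 times lower in TI than in AG, and limma gave a log2 fold change of -1.97 ± 0.21 (SE, FDR = 5.49e-08). TIM lay below AG by a log2 fold change of -1.69 ± 0.21 (FDR = 6.13e-07) and below AGM by -1.39 ± 0.18 (FDR = 5.61e-07). AGM did not pass the threshold against AG, with a log2 fold change of -0.29 (95% confidence interval -0.77 to 0.18, FDR = 0.361), although all 5 AGM values lay below all 3 AG values. It passed with every library set to the same number of reads outside the 126 genes above 1000 FPKM (-0.73, FDR = 0.0197). It also passed with limma-voom (-0.79, FDR = 0.0376) and with only the 2 groups in the fit (-0.29, FDR = 0.0382).

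The next enzyme went the other way. St8sia1 (chromosome 6, 142767271 to 142910178, minus strand) was nearly silent in glands, at 0.0386, 0.0489 and 0.0575 FPKM in AG, which were 38 to 57 reads, and at 0.0524, 0.0571, 0.0631, 0.0726 and 0.101 FPKM in AGM. In TI it ranged from 0.397 to 3.48 FPKM (median 1.52) and in TIM from 0.899 to 1.91 FPKM (median 1.15). The lowest tumor thus stood above the highest gland. The spread was wider in TI (1.67 ± 0.976 FPKM, SD) than in TIM (1.34 ± 0.428 FPKM, SD), a difference in spread that was not tested. The mean FPKM was 34.6 times higher in TI than in AG and 27.7 times higher in TIM. A log2(FPKM + 1) scale shrinks the fold of a gene this low, and on it the log2 fold changes were 1.26 ± 0.23 for TI (FDR = 6.77e-05) and 1.14 ± 0.23 for TIM (FDR = 0.000227). With 0.1 FPKM added in place of 1, the same log2 fold changes were 3.36 and 3.23. TIM was also above AGM, by 1.11 ± 0.19 (FDR = 3.14e-05).

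The promoters of these consecutive enzymes are shown because the genes moved in opposite directions. The 250 bases before the RefSeq start, 5′ to 3′ on the gene's strand, are given in lower case, and capitals mark CANNTG, the core of the E-box to which MYCN and other basic helix-loop-helix factors bind. They lie at chr6:72097358-72097607, plus strand, for St3gal5 and at chr6:142964453-142964702, minus strand, for St8sia1, in GRCm38.p6, which is the build of this sequence table and not of the gene positions above.
St3gal5: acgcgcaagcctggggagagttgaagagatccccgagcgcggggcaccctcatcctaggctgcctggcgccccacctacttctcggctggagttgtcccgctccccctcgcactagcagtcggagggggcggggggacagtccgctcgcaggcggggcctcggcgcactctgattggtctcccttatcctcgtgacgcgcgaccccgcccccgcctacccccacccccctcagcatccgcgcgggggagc
St8sia1: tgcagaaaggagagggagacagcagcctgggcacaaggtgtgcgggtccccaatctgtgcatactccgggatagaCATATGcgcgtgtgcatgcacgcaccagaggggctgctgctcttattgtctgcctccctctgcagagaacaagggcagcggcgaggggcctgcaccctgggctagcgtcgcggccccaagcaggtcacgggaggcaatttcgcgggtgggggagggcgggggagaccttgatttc
St8sia1 held 1 CANNTG and St3gal5 none. The canonical E-box CACGTG, which reads the same on both strands and is contained in CANNTG, was in none of the 7 windows of 300 bases (250 before and 50 after the start) found for 6 of the 8 genes. Over all 32851 windows of that length, 7.15% held CACGTG and 72.3% held CANNTG. The window of St3gal5 was 72.7% G and C and that of St8sia1 64.7%, against a median of 52.7% over all windows.

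**Figure D1:**
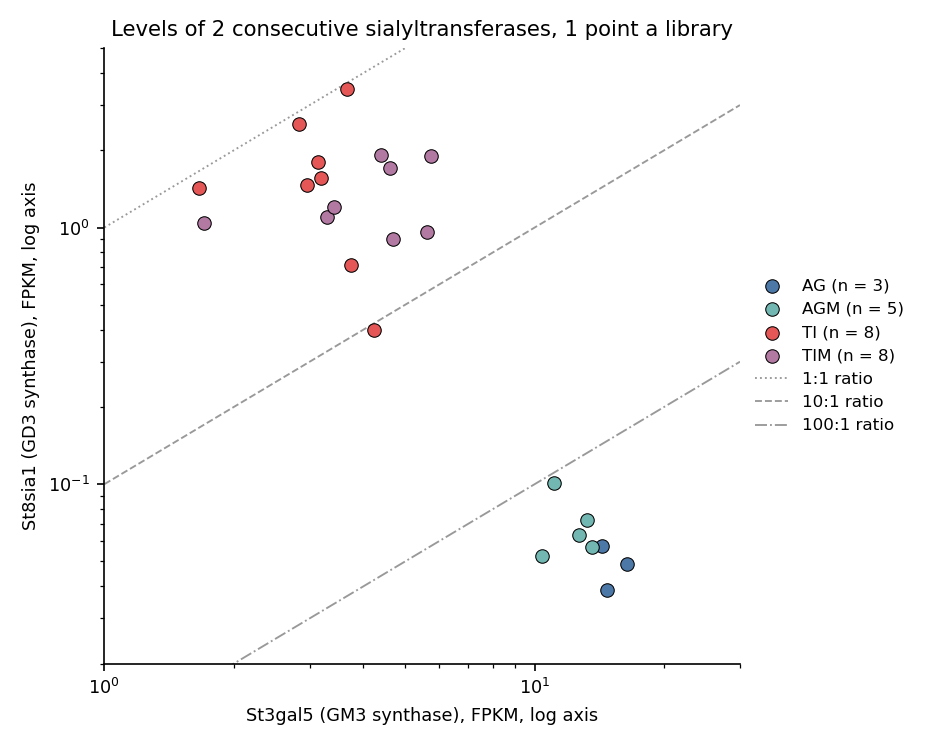
Level of St8sia1 (vertical, FPKM) against that of St3gal5 (horizontal, FPKM), both on log axes, with 1 point per library and colours for the 4 groups. The glands lie at the lower right, below the line of a 100:1 ratio, and the tumors lie at the upper left between ratios of 1.05 and 10.7.

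Both sialyltransferases were therefore in another proportion in tumors than in glands. The ratio of St3gal5 to St8sia1 FPKM was 249 to 380 in AG and 109 to 238 in AGM. In tumors it was 1.05 to 10.7 in TI (median 1.88) and 1.64 to 5.82 in TIM (median 2.92). Transcripts of the GM3 synthase outnumbered those of the GD3 synthase per length by over 100 to 1 in every gland and by at most 10.7 to 1 in a tumor. The ratio describes the values given above and is no separate test.

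B4galnt1 (chromosome 10, 127000537 to 127010607, plus strand), which completes GD2, had a graded pattern. It was at 0.873, 1.15 and 1.39 FPKM in AG and at 1.64, 2.22, 2.39, 3.9 and 4.8 FPKM in AGM. TI ranged from 2.98 to 9.45 FPKM (median 4.68) and TIM from 2.37 to 9.61 FPKM (median 5.81). In FPKM, all AGM, TI and TIM libraries stood above all AG libraries, while AGM overlapped with the tumors, and 10 of 16 tumors stood above every gland. Scaled to the library's reads outside the 126 genes above 1000 FPKM (RPM), AGM also overlapped with AG. The lowest AGM library was at 27 RPM and the highest AG library at 29.8 RPM. The log2 fold change was 1.44 ± 0.29 in TI against AG (FDR = 0.000217), 1.62 ± 0.29 in TIM against AG (FDR = 6.1e-05) and 0.78 ± 0.24 in TIM against AGM (FDR = 0.00807). B4galnt1 shares 2433 exon bases with Slc26a10 on the opposite strand, whose group means were 0.0536 to 0.177 FPKM, and the strand setting of the counting was not given in the sources used here.

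B4galnt1 was also the only one of the 6 genes tested that passed the threshold between the gland groups, with a log2 fold change of 0.85 ± 0.31 in AGM against AG (FDR = 0.0454). In that comparison 28.6% of all 10171 genes tested passed, so that 1 of 6 is no more than the background. The call was not stable: it was lost in 6 of the 8 fits without 1 library (FDR up to 0.152, all 3 AG libraries and 3 of the 5 AGM libraries among them), with no filter on low genes (FDR = 0.0596), with equal read totals (0.52, FDR = 0.141) and with limma-voom (FDR = 0.107). The markers of chromaffin cells and the run differed between the same groups, as given above.

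**Figure D2:**
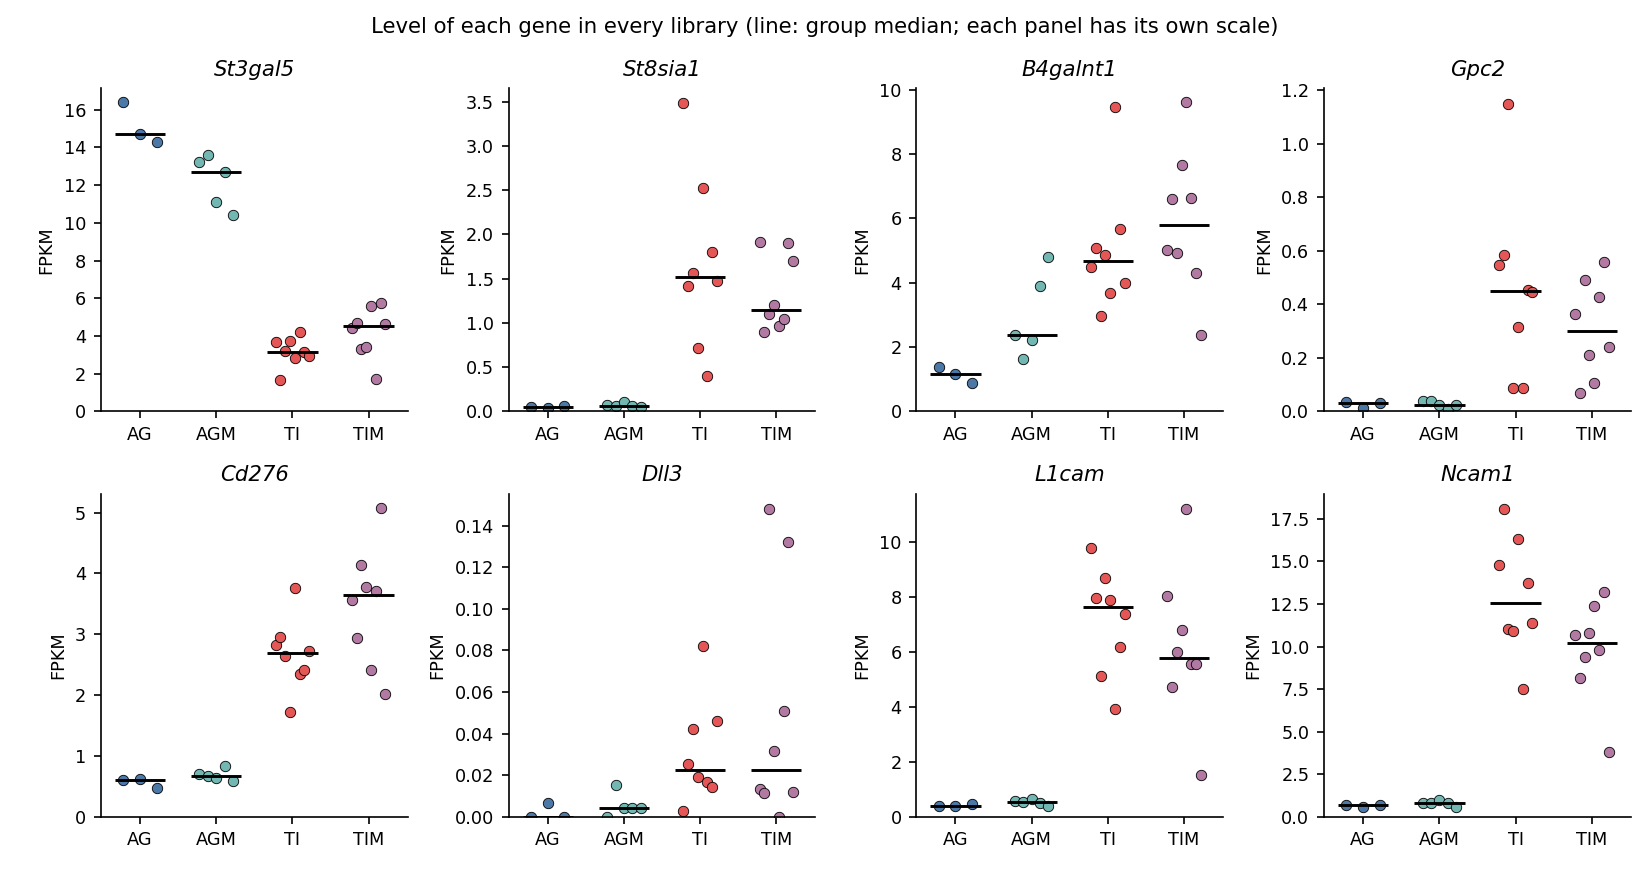
FPKM of each of the 8 genes in every library (points) of the 4 groups, with a line at the group median and a linear axis from 0 that differs between panels. Tumors and glands do not overlap for St3gal5, St8sia1, Gpc2, Cd276, L1cam and Ncam1, and they overlap for B4galnt1 and Dll3.

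The adhesion molecules had the highest mean levels of the 8 genes in both tumor groups. Ncam1 (chromosome 9, 49413436 to 49710357, minus strand) was at 0.592, 0.68 and 0.717 FPKM in AG and at 0.551, 0.783, 0.794, 0.825 and 0.988 FPKM in AGM. It ranged from 7.48 to 18.1 FPKM in TI (median 12.5) and from 3.79 to 13.2 FPKM in TIM (median 10.3). Even the lowest tumor was above the highest gland. The mean was 19.5 times higher in TI and 14.8 times higher in TIM than in AG, with log2 fold changes of 3.03 ± 0.24 (FDR = 4.28e-10) and 2.64 ± 0.24 (FDR = 4.78e-09). Against AGM, TIM was higher by 2.53 ± 0.21 (FDR = 3.18e-10).

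L1cam (chromosome X, 72897378 to 72939711, minus strand) had a like pattern. Its values were 0.374, 0.408 and 0.474 FPKM in AG and 0.376, 0.505, 0.532, 0.571 and 0.639 FPKM in AGM. They were 3.91 to 9.77 FPKM in TI (median 7.63) and 1.51 to 11.2 FPKM in TIM (median 5.76). The glands formed a narrow band and the TIM tumors the widest one, without reaching the glands. The log2 fold change against AG was 2.48 ± 0.29 in TI (FDR = 2.37e-07) and 2.22 ± 0.29 in TIM (FDR = 1.21e-06), and that of TIM against AGM was 2.12 ± 0.25 (FDR = 1.26e-07). With 0.1 FPKM added in place of 1, the change in TI against AG was 3.75. The TIM column with the lowest Ncam1 was also that with the lowest L1cam.

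The promoter of L1cam is shown as that of an adhesion molecule with a large change. The 250 bases before one of its starts, at chrX:73880791-73881040 on the minus strand of GRCm38.p6, held 1 CANNTG, again in capitals.
L1cam: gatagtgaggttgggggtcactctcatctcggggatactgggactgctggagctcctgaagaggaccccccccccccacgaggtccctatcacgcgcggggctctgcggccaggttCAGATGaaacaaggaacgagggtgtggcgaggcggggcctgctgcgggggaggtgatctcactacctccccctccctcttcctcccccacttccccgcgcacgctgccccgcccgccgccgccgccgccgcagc

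Cd276 (chromosome 9, 58431412 to 58463665, minus strand) was present in glands at a low level and higher in all tumors. It was at 0.476, 0.604 and 0.623 FPKM in AG and at 0.594, 0.63, 0.673, 0.698 and 0.84 FPKM in AGM. It ranged from 1.72 to 3.76 FPKM in TI (median 2.69) and from 2.02 to 5.08 FPKM in TIM (median 3.64). The glands formed a narrow band below every tumor. The log2 fold changes against AG were 1.21 ± 0.16 in TI (FDR = 1.38e-06) and 1.48 ± 0.16 in TIM (FDR = 7.29e-08), and with 0.1 FPKM added in place of 1 they were 2.03 and 2.37. TIM stood above AGM by 1.37 ± 0.14 (FDR = 1e-08). In mean FPKM, TI was 4.71 times and TIM 6.09 times as high as AG.

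Gpc2 (chromosome 5, 138271917 to 138278288, minus strand) was low throughout. In the GENCODE annotation it shares 2376 exon bases with Gm43720 on the same strand, which was listed at 0 in every group, and how reads of shared exons were counted was not given in the sources used here, so that its level is uncertain. It fell below the filter of 1 FPKM in at least 3 libraries, so that it was tested alone, by an exact two-sided permutation test of the mean FPKM with adjustment over the 5 comparisons. It was at 0.0133, 0.0309 and 0.0349 FPKM in AG and at 0.0108, 0.0224, 0.0233, 0.0382 and 0.0404 FPKM in AGM, which were 4 to 16 reads a library. It ranged from 0.086 to 1.15 FPKM in TI (median 0.45, 39 to 490 reads) and from 0.0701 to 0.558 FPKM in TIM (median 0.301, 28 to 273 reads). All 16 tumors stood above all 8 glands, and the mean was 17.4 times higher in TI and 11.7 times higher in TIM than in AG. The exact permutation test gave p = 0.0545 (adjusted 0.0909) for TI against AG and p = 0.0242 (adjusted 0.0606) for TIM against AG, where 8 against 3 libraries allow no p below 0.00606. For TIM against AGM the exact test gave p = 0.00622 (adjusted 0.0311), and this call was lost in 10 of the 13 tests without 1 library (each of the 5 AGM and 5 of the 8 TIM libraries), where the adjusted p was up to 0.0631. The test compares means and takes no account of the complete separation of tumors from glands.

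Dll3 (chromosome 7, 27992978 to 28001673, minus strand) was at the edge of detection. It was listed at 0 in 2 AG libraries, 1 AGM library and 1 TIM library, and no gland had more than 4 reads. TI ranged from 0.00289 to 0.0823 FPKM (1 to 30 reads) and TIM from 0 to 0.148 FPKM (0 to 43 reads), with a median of 0.0224 FPKM in both. 10 of 16 tumors stood above every gland. By the exact two-sided permutation test none of the 5 comparisons passed, with a lowest adjusted p of 0.19 and raw p from 0.0727 to 0.554. Whether the test could detect a difference at such low counts was not examined.

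The members' calls can be set against the whole table. Of the 6 genes tested with limma, 5 were higher and 1 lower in TI than in AG, where 24.6% of all genes tested were higher and 27.7% lower. TIM against AG gave the same 5 higher and 1 lower, against 22.5% and 28.5% of all genes, and TIM against AGM again 5 and 1, against 31.9% and 33.4%. Of the 5 higher genes, 4 (St8sia1, Cd276, L1cam and Ncam1) were below 1 FPKM in every gland and passed the filter on low values only through the tumors, as did 15.8% of all genes tested, so that the count of higher genes is a description and supports nothing. These comparisons also share libraries, so they are not separate evidence. By level alone, 5 of the 8 genes were higher in all 16 tumors than in all 8 glands, as were 5.72% of the 18862 genes with any value above 0, and with St3gal5, which was lower, 6 of the 8 did not overlap in either direction, against 14.7% of those genes.

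**Figure D3:**
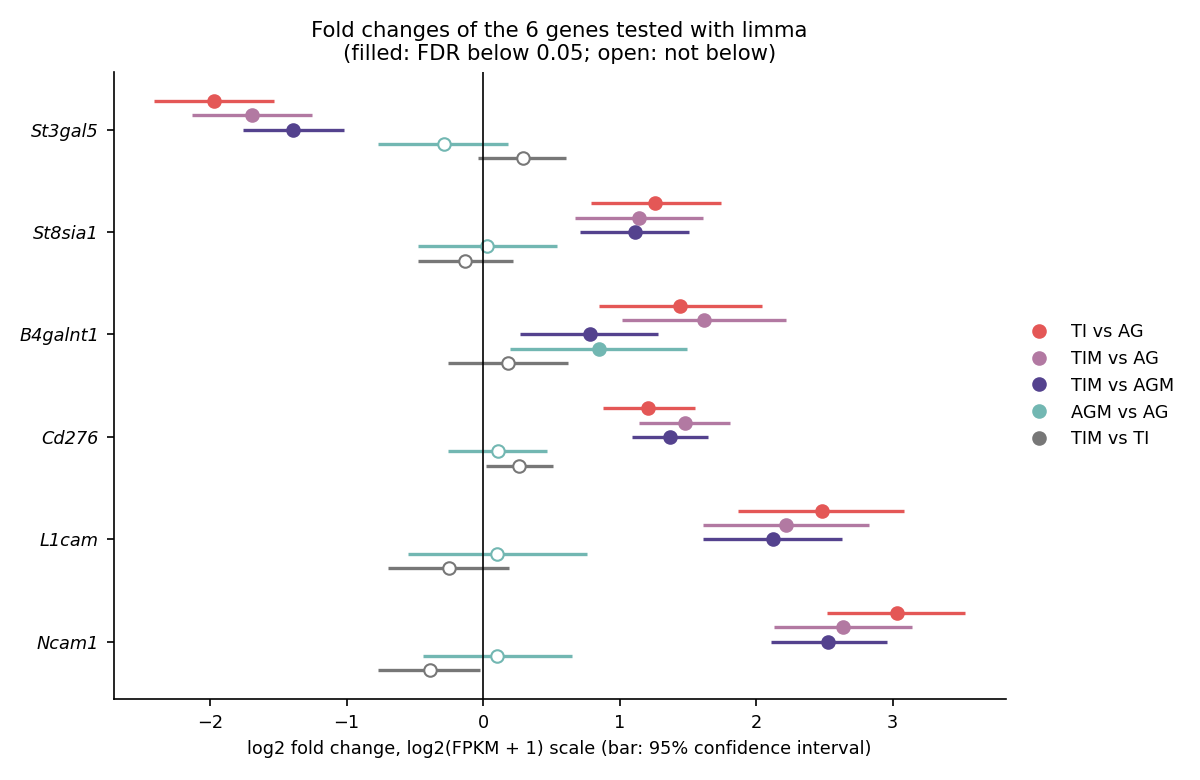
Log2 fold change on the log2(FPKM + 1) scale (horizontal) of the 6 genes tested with limma, for 5 comparisons in colour, with bars for 95% confidence intervals. Points are filled where the FDR was below 0.05: all 3 comparisons of tumors with glands are filled for every gene, AGM against AG is filled for B4galnt1 alone and TIM against TI is open for all.

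TIM and TI tumors differ in MYCN and also in the dose of IGF2BP1. 7 of 8 TI samples were +/+, whereas the study's genotyping of TIM mice found both transgenes and no unmodified Rosa26 allele, so that the comparison does not isolate MYCN. None of the 6 tested genes passed (limma, 2 at an unadjusted p under 0.05), where 22.9% of all genes did. The log2 fold change of TIM against TI was 0.26 for Cd276 (95% confidence interval 0.02 to 0.51, FDR = 0.113) and -0.39 for Ncam1 (-0.77 to -0.02, FDR = 0.117). It was 0.29 for St3gal5 (-0.04 to 0.61, FDR = 0.193), -0.25 for L1cam (-0.70 to 0.19, FDR = 0.423), 0.18 for B4galnt1 (-0.26 to 0.62, FDR = 0.589) and -0.13 for St8sia1 (-0.48 to 0.22, FDR = 0.634). TI and TIM also came mainly from different runs, and what the run adds was not tested. Mice with both transgenes also had a shorter median survival than homozygous IGF2BP1 mice in the study, and the part of age was not tested. 3 of the 6 genes passed in some alternatives. Ncam1 was lower in TIM with equal read totals (-0.52, FDR = 0.0249), with limma-voom (-0.57, FDR = 0.0481) and without the sixth TI column (-0.49, FDR = 0.039). Cd276 was higher without the eighth TIM column (0.34, FDR = 0.0262), and St3gal5 without the sixth (0.41, FDR = 0.0212). The eighth TIM column held the lowest Ncam1 of the TIM tumors.

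The difference between the tumor effects, (TIM - AGM) - (TI - AG), passed for none of the 6 genes by limma or limma-voom, and 10.0% of all genes passed by limma. 1 of the 6 had an unadjusted p under 0.05. It was 0.58 ± 0.28 for St3gal5 (unadjusted p = 0.0487, FDR = 0.211), the nearest to the threshold, and -0.67 ± 0.38 for B4galnt1 (FDR = 0.301). With equal read totals St3gal5 passed (0.91, FDR = 0.0408), as it did without the sixth TIM column (0.71, FDR = 0.0471).

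The order of the 8 genes by level was fixed at both ends in glands. St3gal5 led and B4galnt1 came next in all 8 gland libraries, and St8sia1, Gpc2 and Dll3 were the lowest in all of them. Ncam1, Cd276 and L1cam lay between, and Ncam1 exceeded Cd276 in 2 of 3 AG and 3 of 5 AGM libraries, so that they did not separate. Tumors varied more. Ncam1 exceeded L1cam in each of the 16 tumors and was the highest of the 8 genes in 7 of 8 TI and 7 of 8 TIM libraries. L1cam exceeded B4galnt1 in 7 of 8 TI but 4 of 8 TIM libraries, and St3gal5 exceeded Cd276 in 6 of 8 TI and 5 of 8 TIM libraries. Gpc2 and Dll3 were the lowest in all 16 tumors, and St8sia1 came next above them in 7 of 8 TI and 7 of 8 TIM libraries. FPKM is per length, which lets levels be set side by side. The exons that Gpc2 and B4galnt1 share with other genes, and the batch correction, can still shift this order, which was not tested.

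Whether the genes moved together among tumors was tested within TI and within TIM over 56 pairs. By exact permutation of the log2(FPKM + 1) values, none passed after Benjamini-Hochberg adjustment, while 8 Pearson and 5 Spearman correlations had an unadjusted p below 0.05. Gpc2 and Dll3 in TIM had r = 0.814 (exact p = 0.0117, adjusted 0.314) and rho = 0.881 (exact p = 0.00724, adjusted 0.135). Without the 2 libraries farthest from the median of Gpc2, r was 0.754, and libraries far out in Dll3 were not left out for that. L1cam and Ncam1 in TIM had r = 0.899 (exact p = 0.012, adjusted 0.314) and rho = 0.595. Without the 2 libraries farthest from the median of L1cam, r fell to 0.39, so that it rested on them.

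Over all 24 libraries, the tested genes most like each member in pattern were found by Pearson's r of log2(FPKM + 1), as a description, since the libraries split into glands and tumors. Ncam1 was most like Dpysl2 (r = 0.991), which encodes the axon growth protein CRMP2, and then B4galnt4 (0.985) and Rnf157 (0.984). L1cam was most like Kif5a (0.982), a neuronal kinesin, then Ncam1 (0.979) and Mcf2l (0.978). Cd276 followed Wasf1 and Edc3 (both 0.960) and Crmp1 (0.956). St8sia1 followed Zfp282 (0.938), Tvp23a (0.936) and Tub (0.930). B4galnt1 had the weakest best match, Fam207a (0.901), ahead of Syp (0.868), which encodes the synaptic vesicle protein synaptophysin, and Prr7 (0.864). St3gal5 was most like Gprc5b (0.955), Stx17 (0.954) and Mtln (0.954).

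The other genes of ganglioside and glycosphingolipid synthesis did not move in 1 direction. Of 17 listed, 11 were tested, and 3 were higher and 3 lower in TI than in AG, with a median log2 fold change of -0.13. In TIM 4 were higher and 2 lower, with a median of -0.10. Over all genes tested the median was 0.00 in both comparisons, here and for the lists below. The counts of these lists stand beside 24.6% of all genes higher and 27.7% lower in TI, and 22.5% and 28.5% in TIM. Between TIM and TI, 22.9% of all genes passed in either direction. Of the genes named from them, B4galt6, St8sia3, Cers1, Degs2, Jag2, Dlk2, Alk and Gfra3 were below 1 FPKM in every gland and Cert1, Notch2 and Fgfr4 in every tumor, so that they passed the filter only through the other tissue. B4galt6, a lactosylceramide synthase, was higher (1.21 in TI, FDR = 5.75e-06), from 0.477 FPKM in AG to 2.5 in TI and 2.54 in TIM, while the other lactosylceramide synthase, B4galt5, was lower in TI (-0.54, FDR = 0.0173). St8sia3, another sialic acid transferase, was higher in both (0.92 and 0.99). St3gal1 and St3gal3 were lower in both, St3gal3 by -0.99 in TI (FDR = 2.38e-06). Ugcg, which makes glucosylceramide and so starts the series, passed in TIM only (0.40, FDR = 0.0423) and had 0.33 in TI (FDR = 0.0923). The difference between TI and TIM did not pass for Ugcg (FDR = 0.717).

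Ceramide supply was mostly lower. Of 9 tested genes 7 were lower and 2 higher in TI, and 6 and 2 in TIM, with medians of -0.53 and -0.61. Cert1, which carries ceramide to the Golgi, was at 4.54 FPKM in AG, 1.68 in AGM, 0.77 in TI and 0.614 in TIM (-1.65 in TI, FDR = 4.04e-11). Sptlc1 and Sptlc2, subunits of the first enzyme of sphingolipid synthesis, were lower in TI by -1.38 and -1.61. Cers2, a ceramide synthase, was lower in TI by -1.40, while Cers1 was higher by 0.60 and Degs2 by 0.82. Cert1, Sptlc1 and Sptlc2 were also lower in AGM than in AG. In TIM against TI, 2 of the 9 genes were higher and 3 lower. Sptlc2 (-0.39, FDR = 0.0133) and Degs2 (-0.33, FDR = 0.00663) were among the lower ones.

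Of 12 tested genes of ganglioside breakdown, 1 was higher and 3 lower in TI, and 5 were higher and 2 lower in TIM, with medians of -0.07 and 0.36. Gm2a, the activator protein for the breakdown of GM2, was lower in tumors, at 16 FPKM in AG, 23.8 in AGM, 1.96 in TI and 2.87 in TIM (-2.53 in TI, FDR = 7.05e-11), and Hexa, a subunit of its enzyme, was lower by -1.20 in TI. Gba2, a glucosylceramidase outside the lysosome, was higher by 0.93 in TI. In TIM against TI, 6 of the 12 genes were higher and 1, Gba2, was lower (-0.39, FDR = 0.000462). For the supply of activated sialic acid, 4 of 5 genes were tested, of which 1 was higher and 1 lower in each tumor group (medians -0.08 and -0.13). Cmas, which charges sialic acid with CMP, was higher, at 0.894 FPKM in AG, 2.88 in TI and 7.25 in TIM, and it also differed between TIM and TI (FDR = 4.44e-06), whereas the transporter Slc35a1 was lower in both tumors.

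Genes of the families of the surface proteins moved in both directions. Of 3 tested glypicans, Gpc1 was higher (1.03 in TI, FDR = 0.000495) and Gpc3 and Gpc4 were lower, Gpc4 from 5.73 FPKM in AG to 0.385 in TI, with medians over the 3 of -1.66 in TI and -0.71 in TIM. In the B7 family, 2 other genes were tested, Vsir and Icosl, both lower in TI and Icosl alone past the threshold in TIM (medians -0.49 and -0.61), and Cd274, which encodes PD-L1, was below the filter at 0.632 FPKM in AG and 0.202 in TI. Of 7 tested genes of the L1 family and its partners, 6 were higher in TI and 6 in TIM, and none lower, with medians of 0.99 and 0.85. 6 of the 7 were below 1 FPKM in every gland and were tested only through the tumors, so that this count supports nothing about the list. The remaining gene, Ezr, had 1.02 in TI (FDR = 0.000478) and 0.09 in TIM (FDR = 0.768). Ezr was lower in TIM than in TI (-0.93, FDR = 0.000461), and 1 of the 7 was higher. The others included Cntn1 (1.03 in TIM, FDR = 0.000225), Nrcam (1.01 in TI), Nfasc (1.78) and the ankyrin gene Ank3 (0.99), which anchors such molecules to the membrane skeleton. Of 3 tested genes around Ncam1 (medians 0.87 and 0.67, 2 of them below 1 FPKM in every gland), Ncam2 (0.87) and St8sia2, which builds polysialic acid on NCAM, were higher, St8sia2 from 0.123 FPKM in AG to 3.23 in TI and 2.29 in TIM, and Fgfr1, a receptor that binds NCAM, was lower (-1.67).

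Around Dll3, 7 of 11 Notch ligands and receptors were tested, of which 2 were higher and 1 lower in TI and 3 and 1 in TIM, with medians of 0.52 and 0.84. Jag2 rose to 5.68 FPKM in TI from 0.471 in AG, Dlk2 rose to 1.05 from 0.00746, and Notch2 fell to 0.117 from 2.03. Dner was at 0.042 FPKM in AG, 0.518 in TI and 18.7 in TIM, and it differed between TIM and TI (FDR = 8.11e-05). Of 6 tested Notch targets and regulators of Dll3 (medians 0.19 and 0.48), Insm1 was higher (2.71) and Hes6 lower (-1.97) in TI. Of 12 tested genes for other proposed surface targets, 4 were higher and 4 lower in TI, and 6 and 2 in TIM, with medians of 0.39 and 0.73. Gfra3 was at 0.534 FPKM in AG, 36.7 in TI and 10.2 in TIM, Cd24a rose from 1.87 to 28.7 in TI, and Alk, a receptor kinase mutated in familial neuroblastoma, from 0.00241 to 2.49, while Cd47, Cd44 and Fgfr4 were lower in TI. Thy1 passed in TIM (2.13, FDR = 0.000993), had 0.02 in TI, and differed between TIM and TI (FDR = 0.000426). Of these 12 genes, Thy1 was the 1 higher in TIM than in TI. The 2 lower ones were Gfra3 (-1.66, FDR = 0.00653) and Slc6a2 (-1.36, FDR = 0.00351).

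**Figure D4:**
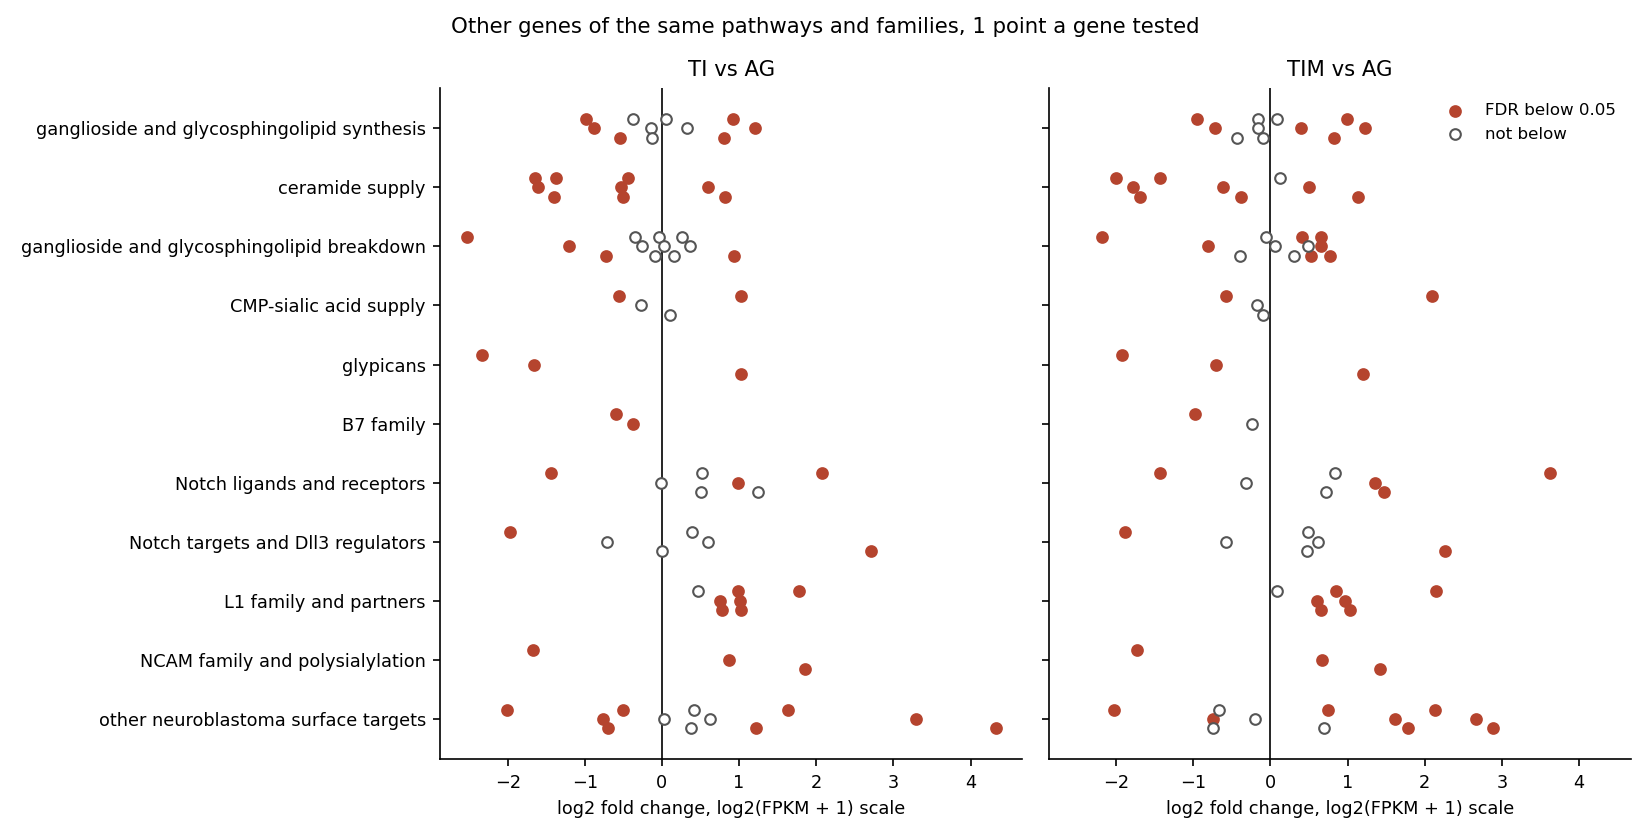
Log2 fold change on the log2(FPKM + 1) scale (horizontal) in TI against AG and TIM against AG of each tested gene in 11 lists of pathways and families (vertical), other than the 8 genes themselves. Filled points passed an FDR of 0.05: ceramide supply lies mostly to the left, the L1 family and its partners to the right, and ganglioside synthesis on both sides.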

How the data were processed

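Tissue RNA of 24 mouse samples was sequenced. According to the labels' processing notes, the authors trimmed reads with cutadapt 2.8, aligned them with HISAT2 2.1.0 to mm39 (SAMtools 1.10), counted with featureCounts 2.0.0 and used edgeR 3.40, and the study's methods add a batch correction by ComBat-seq and TMM scaling. The annotation was not given in the sources used here. The deposited values were FPKM of 21833 protein-coding genes with their lengths, and 9 columns of the authors' own comparisons (log2 fold changes, p-values and FDR) were not used. ComBat-seq replaces counts by adjusted ones, so the values of low genes can shift. Columns named a group but not a replicate, so each library belongs to its group only. The labels did not say whether samples of a group came from separate animals, so p-values measure the spread between samples.

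The 10171 genes that reached 1 FPKM in 3 or more libraries were tested on log2(FPKM + 1) with limma 3.58.1 in R 4.3.3 (intensity trend, all 24 libraries, Benjamini-Hochberg FDR below 0.05). Genes below the filter had an exact two-sided permutation test over samples of the mean FPKM. FPKM times length fell on whole multiples of 1 step in each library (within 0.01), which gave the reads. They may be counts after batch correction and not reads as sequenced, which was not tested. They were used for library totals and for limma-voom, since FPKM alone holds no totals. The limma fit, but not the other steps, was tested on simulated data. Tables and figures used Python 3.11.15, pandas 2.3.3, numpy 2.4.6, scipy 1.17.1 and matplotlib 3.10.9. Alternatives were another pseudocount, no filter, a filter on the mean, equal read totals, only the groups compared, limma-voom and leaving out each library. The 8 genes and all gene lists were chosen with earlier results of these data known. All 8 genes were named, as were, for each list of a pathway or family, up to 4 genes past the threshold with the largest log2 fold change in TI or TIM against AG, and for each tested member the 3 genes most like it by Pearson's r. Results withheld from this text are not reported here. Other genes of the lists were named after their values were seen. Promoters came from RefSeq (GRCm38.p6), and gene positions from GENCODE on GRCm39.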

Additional observations from a re-analysis of the deposited data

Results flagged for a closer look

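In 24 combinations of gene and group with 5 or 8 libraries, the gap between the lowest or highest library and its neighbour was set against the group's range on the log2(FPKM + 1) scale, a test that chance passes in about 1 of 20 groups. 3 stood apart. St3gal5 was at 1.66 FPKM (418 reads) in 1 TI library, where the next lowest had 2.84 FPKM. Ncam1 was at 3.79 FPKM in 1 TIM library, where the next had 8.17 FPKM, and the same library had the lowest L1cam, at 1.51 FPKM. Dll3 was at 0.0153 FPKM in 1 AGM library, where the next highest had 0.00437 FPKM, which is a matter of 4 reads.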

How the results depend on the processing

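No paired analysis was possible because the columns of the table carry no replicate number of the labels. The calls of all 6 tested genes in TI against AG, TIM against AG and TIM against AGM held in every alternative run, with 6 of 6 called in each fit without 1 library. With no filter on low values, limma called 7 of the 8 genes in TI against AG and in TIM against AGM. Gpc2 or Dll3 was thus among them, unlike in the main fit. In AGM against AG the 1 gene called became 0 with no filter on low values and 2 with only the groups compared, and 0 to 1 without 1 library. With equal read totals and with limma-voom the count stayed at 1, but the gene changed. St3gal5, which was lower, was called there (FDR = 0.0197 and 0.0376) and B4galnt1 was not. In TIM against TI the count of 0 became 1 with equal read totals and 1 with limma-voom, and 0 to 1 without 1 library. Over all genes, AGM against AG called 2908, which became 4407 with equal read totals, 6312 with only the groups compared and 1896 to 2923 without 1 library (1896 and 1935 without the first and the second AG column). TIM against TI called 2332, which became 1309 with only the groups compared and 1831 to 2788 without 1 library. Without 1 library, TI against AG called 4468 to 5454 genes, TIM against AG 4293 to 5449 and TIM against AGM 6076 to 6930. The cause of these changes was not tested. Equal read totals moved the median log2 fold change of all genes to -0.26 in AGM against AG, 0.21 in TIM against AGM and 0.18 in the difference of the tumor effects, and limma-voom moved it to -0.50, 0.35 and 0.36 and to -0.23 in TIM against AG and -0.17 in TIM against TI. Equal read totals lowered the share of higher genes among those called from 51.2% to 21.1% in AGM against AG and from 43.6% to 28.0% in TIM against TI, and raised it from 48.8% to 61.3% in TIM against AGM and from 38.5% to 67.3% in the difference. With limma-voom that share was 14.4% in AGM against AG, 22.7% in TIM against TI, 31.5% in TIM against AG (44.2% by limma), 60.5% in TIM against AGM and 79.6% in the difference. The exact tests of Gpc2 and Dll3 gave the same calls on RPM, the reads scaled to the library's reads outside the 126 genes above 1000 FPKM. Precision is limited most for Dll3 and for Gpc2 in glands, by a few reads a library.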
